A study of Mus musculus with 16 samples.

Results

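The genes described here are 8 members of the hypothalamic thyroid axis and of the brain's response to thyroid hormone: Trh, Trhr, Trhde, Pgpep1, Thra, Hr, Crym and Nrgn. They were chosen by gene symbol, and 10 of the 25697 probes on the array carry these symbols, with 2 probes each for Hr and Pgpep1. All 10 probes passed the filter on dim values, among 13662 probes that did. RNA of the whole hypothalamus of male mice was hybridised to Illumina bead arrays, with 4 arrays in each of 4 groups. These were AgRP-/- mice fasted for 30 h, AgRP-/- mice fed ad libitum, AgRP+/- mice fasted for 30 h and AgRP+/- mice fed ad libitum, all on a mixed strain background. Agouti-related peptide is a feeding peptide of arcuate neurons, and the AgRP+/- mice themselves carry 1 deleted copy, so no group was wild type. Whether an array holds RNA of 1 animal or of several is not stated, so p-values reflect array-to-array spread only, and that spread may be technical.

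Thyrotropin-releasing hormone (TRH), the product of Trh, is a short peptide that neurons of the paraventricular nucleus release to drive thyrotropin secretion by the pituitary. Thyroid hormone feeds back on these neurons, and fasting is known to lower the drive on the thyroid in rodents. In brain cells the hormone acts mainly through nuclear receptors, which bind DNA and recruit coactivators or corepressors.

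Deposited values were log2 intensities, so a difference of 1 is a doubling of brightness, and levels of different probes are not compared. Array distributions had been made nearly equal, with sorted columns within 0.0345 of each other, so a shift common to most of the genes would be hidden. The lowest correlation between a pair of arrays was 0.989. Markers of hypothalamic neurons were present, with 9 of 11 passing the filter and a list mean between 9.78 and 10.20 on every array. Those that did not pass were Sim1 and Otp, which are also in the list of regulators of TRH neurons followed below. The genotype labels were not checked by gene, since 0 probes carried the name Agrp. A gene was called changed at an adjusted p under 0.05 from limma, with the Benjamini-Hochberg adjustment over all kept probes.

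With fasting Hr rose and Trhr fell, and no other member passed the test when the genotypes were averaged. Hr was called higher where 2.33% of 9530 genes were called higher, and Trhr lower where 1.98% were called lower. The median change of the 8 members was -0.016, beside -0.0032 for all genes. Between the genotypes limma called 0 of 8 members, where 0% of genes were called in fed mice, 0.0105% in fasted mice and 0.0315% averaged over feeding. In each of these contrasts, and for the interaction of fasting and genotype, 1 of 8 members had an unadjusted p under 0.05. It was Thra in fed mice and for the interaction, and Trhr in fasted mice and averaged over feeding. The share of all genes was 4.29% in fed mice, 7.14% in fasted mice, 8.93% averaged over feeding and 2.64% for the interaction. Fasting within AgRP-/- mice called Trhr lower and no member higher by its brightest probe, against 0.147% and 0.273% of genes. Fasting within AgRP+/- mice called Hr higher and no member lower, against 0.619% and 0.178% of genes. The plot of fasting changes by genotype shows all 10 probes.

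**Figure D1:**
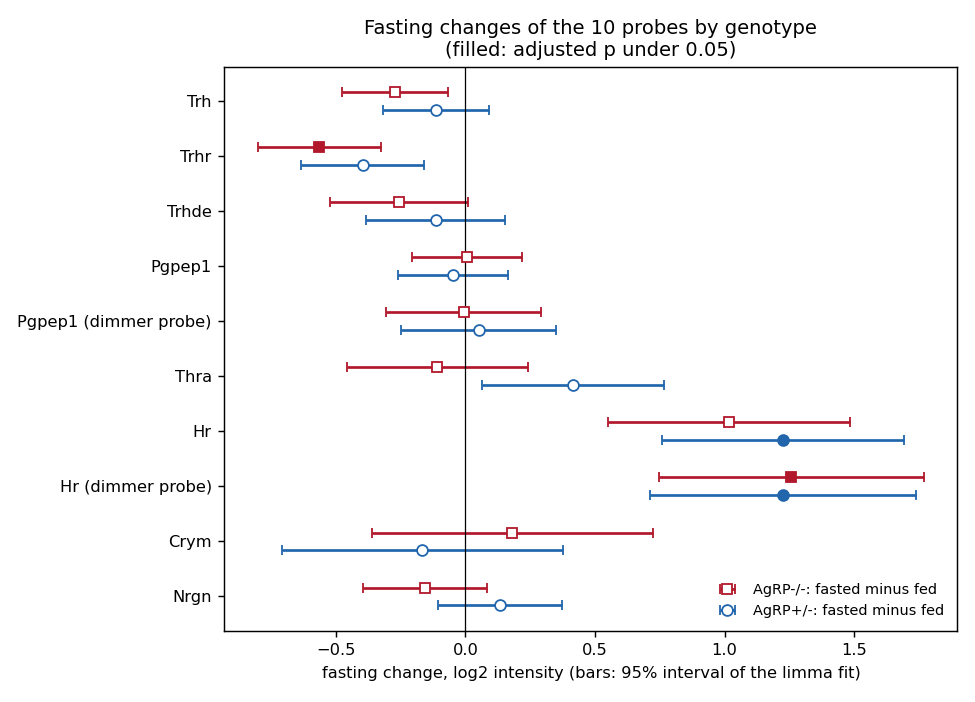
Fasting change of each of the 10 probes (log2 intensity, fasted minus fed) in AgRP-/- mice (squares) and AgRP+/- mice (circles), with 95% intervals of the limma fit and filled symbols for an adjusted p under 0.05. Both Hr probes lie above 1 in each genotype, Trhr lies at -0.56 and -0.40, and the intervals of Trhde, Pgpep1, Crym and Nrgn include 0 in each genotype.

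Among the members Trh is the ligand gene, and its promoter is shown because it carries a stretch at which thyroid hormone receptors and the cAMP pathway are known to act on this gene. Promoter sequences of RefSeq (GRCm38.p6) were matched for 4 of the 8 members, Trh, Trhde, Pgpep1 and Nrgn. The 250 bases upstream of the Trh start site (chr6:92244651-92244900, minus strand) are given 5′ to 3′, with the letters TGACCTCA in capitals.
Trh: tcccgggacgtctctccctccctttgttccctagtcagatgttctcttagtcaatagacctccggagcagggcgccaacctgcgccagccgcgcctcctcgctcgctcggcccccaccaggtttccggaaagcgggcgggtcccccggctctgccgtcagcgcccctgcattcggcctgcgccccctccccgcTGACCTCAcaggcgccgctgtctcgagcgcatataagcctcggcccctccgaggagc
The motif TGACCTCA was searched on both strands, and its match in Trh begins 57 bases before the start site. It was found in 1.94% of 32851 promoter windows of this length. The receptor element AGGTCA, present in 14% of windows, overlaps it on the other strand. A repeat of AGGTCA after a spacer of 4 bases, present in 0.0152% of windows, had 0 matches in the 4 promoters. The cAMP element TGACGTCA (1.55% of windows) and the glucocorticoid element, AGAACA and TGTTCT with 3 bases between them (0.00913%), also had 0 matches there. Trhde, Pgpep1 and Nrgn had 0 matches to any of the 5 motifs, which says only that these letters are not in these windows.

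Trh itself read 11.37, 11.66, 11.64 and 11.56 in fasted AgRP-/- mice (replicates 1 to 4), against 11.83, 11.90, 11.71 and 11.87 in fed AgRP-/- mice. Every fasted array of this genotype lay below every fed one, as for 4.43% of all genes. AgRP+/- mice had 11.39, 11.39, 11.83 and 11.71 after fasting, against 11.65, 11.72, 11.89 and 11.50 in fed mice, and these groups overlapped. The change was -0.27 (95% interval -0.48 to -0.066, limma adjusted p = 0.243) in AgRP-/- mice and -0.11 (-0.32 to 0.093, adjusted p = 0.699) in AgRP+/- mice. Averaged over genotypes it was -0.19 (SE 0.069, adjusted p = 0.123), which did not pass the test. The interval of -0.34 to -0.047 allows a fall to 0.792 of the fed level in hypothalamic RNA as a whole. The paraventricular neurons that drive the pituitary are only some of the neurons that make this peptide, and the arrays do not separate them.

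Trhr, the receptor for TRH on target cells, fell with fasting. It read 6.76, 6.87, 7.08 and 6.92 in fasted AgRP-/- mice, against 7.52, 7.56, 7.42 and 7.38 in fed AgRP-/- mice. Values in AgRP+/- mice were 7.06, 7.21, 7.41 and 7.13 after fasting, against 7.44, 7.56, 7.89 and 7.51 in fed mice. Fasted and fed arrays did not overlap within either genotype, as for 4.43% of genes in AgRP-/- and 2.31% in AgRP+/- mice in this direction. Over both genotypes a single fasted array, AgRP+/- replicate 3, reached the range of the fed arrays.

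Averaged over genotypes Trhr fell by 0.48 (SE 0.081, limma adjusted p = 0.0019), to 0.717 of the fed level (95% interval 0.638 to 0.806). The change was -0.56 (SE 0.11, adjusted p = 0.0287) in AgRP-/- mice, and -0.40 (SE 0.11, adjusted p = 0.148) in AgRP+/- mice. The difference between these changes, -0.17 (95% interval -0.50 to 0.17), was not called by the interaction test (adjusted p = 0.999). The lowest group mean was that of fasted AgRP-/- mice, 6.91 ± 0.14, against 7.20 ± 0.15 in fasted AgRP+/- mice (SD, n = 4 each). This genotype difference of -0.30 did not pass the test over all probes (limma adjusted p = 0.688, unadjusted p = 0.0177).

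The call in AgRP-/- mice alone depended on single arrays. It was lost without any of the fed AgRP-/- replicates 1 to 4 or of the fasted ones 1, 2 or 4, at changes of -0.59 to -0.51 and limma adjusted p of 0.0566 to 0.105. The averaged call was kept without each of the 16 arrays in turn (changes of -0.51 to -0.43, adjusted p of 0.00102 to 0.00535).

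**Figure D2:**
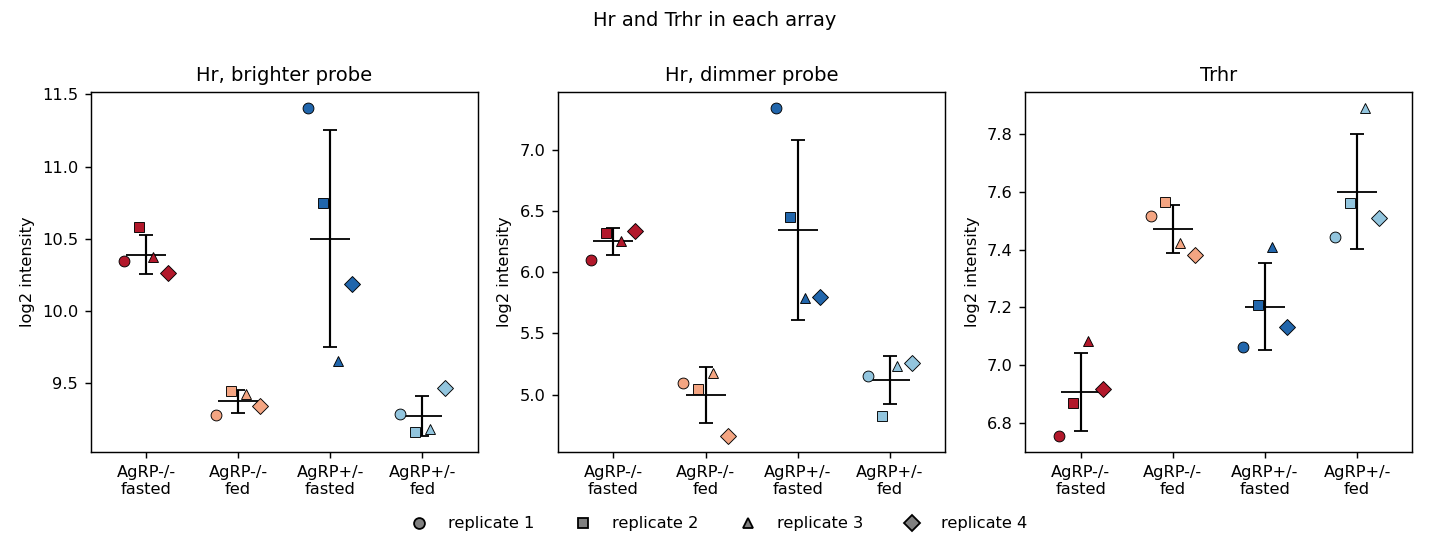
Log2 intensity of both Hr probes and of Trhr on each array, by group, with the symbol giving the replicate number, the horizontal line the mean and the bar the SD (n = 4). Fasted arrays lie above fed arrays for both Hr probes and below them within each genotype for Trhr, and AgRP+/- fasted replicate 1 is the highest array for Hr at 11.40 and 7.34.

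Markers of ependymal cells, the ciliated cells that line the ventricles, had lower means in fasted than in fed mice, like Trhr, but without a call. All 3 markers on the array of 6 in the list passed the filter, and their mean level ran from 7.77 to 8.07 in fasted AgRP-/- mice, against 8.08 to 8.30 in fed AgRP-/- mice. For AgRP+/- mice the range was 7.67 to 8.15 after fasting, against 7.97 to 8.62 in fed mice. Foxj1, a regulator of motile cilia, read -0.35 averaged over genotypes (limma adjusted p = 0.073), Rarres2 -0.32 (0.0957) and Dynlrb2 -0.18 (0.488), so 0 of the 3 were called. With their mean as a covariate, chosen after seeing the data, the averaged change of Trhr was -0.34 (SE 0.087, adjusted p = 0.0491) and that in AgRP-/- mice -0.41 (adjusted p = 0.15). The covariate was itself lower on average with fasting, so this fit cannot tell its part from that of fasting. In RNA of a whole region, fewer cells of a type and less RNA per cell cannot be told apart.

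The genes most like Trhr were sought among 9529 others by the correlation of log2 values over the 16 arrays after each group's mean was subtracted. They were Igsf9 (r = 0.919), Ttc29 (0.915) and Tekt1 (0.915), of which Tekt1 encodes a protein of ciliary microtubules. These correlations are descriptions, since they are the highest of a search over all genes and share the arrays' tissue composition. Ttc29 read -0.44 with fasting averaged over genotypes (limma adjusted p = 0.0946), Tekt1 -0.19 (0.439) and Igsf9 -0.0042 (0.98).

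Pituitary cells also carry this receptor, and 1 of the 10 pituitary markers on the array, Cga, passed the filter. The list mean ran from 4.44 to 4.89 in fasted AgRP-/- mice and from 4.48 to 4.84 in fed AgRP-/- mice. It ran from 4.47 to 4.58 in fasted AgRP+/- mice and from 4.43 to 5.07 in fed AgRP+/- mice. Cga, the subunit that thyrotropin shares with other hormones, read 7.17 and the thyrotropin gene Tshb 6.12 on AgRP-/- fasted replicate 2, where Trhr read 6.87. The growth hormone gene Gh read 7.78 and the prolactin gene Prl 7.34 on AgRP+/- fed replicate 2, where Trhr read 7.56. Lower readings over 1 above the median were those of Gh on AgRP-/- fed replicate 1 (6.14) and of Cga on AgRP-/- fasted replicate 3 (5.71), AgRP-/- fed replicate 3 (6.09) and AgRP+/- fed replicate 4 (5.70). Without the 2 arrays on which a pituitary marker stood over 2 above its median Trhr changed by -0.48 averaged over genotypes (limma adjusted p = 0.00904) and by -0.55 in AgRP-/- mice, where the call was lost (adjusted p = 0.11).

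**Figure D3:**
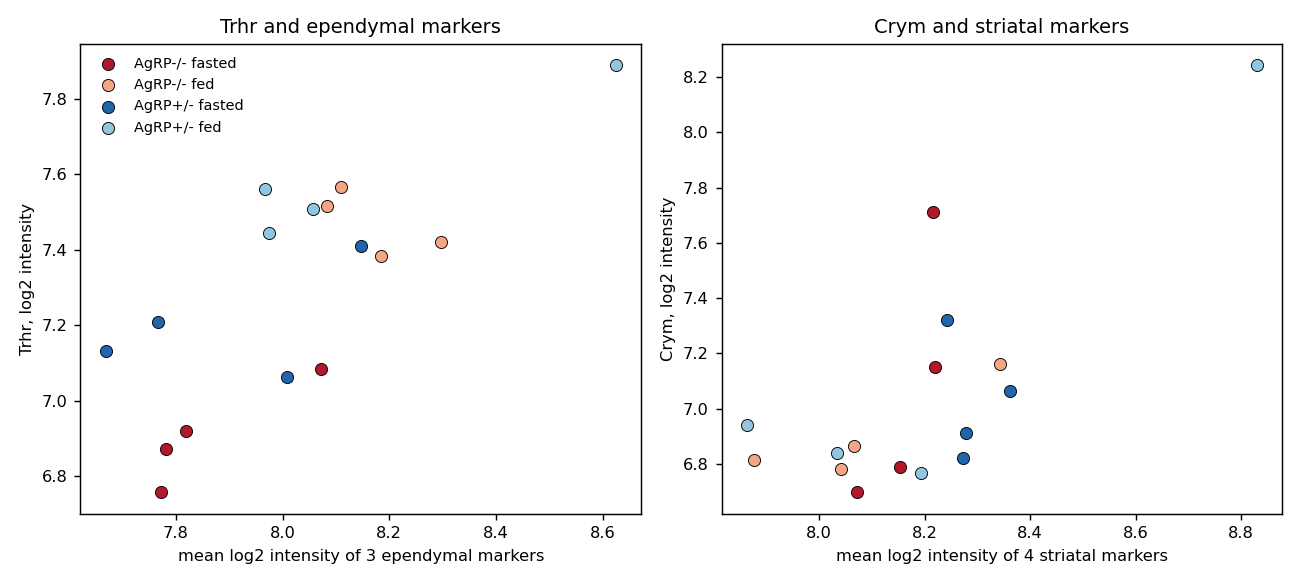
Left, log2 intensity of Trhr against the mean of 3 ependymal markers, and right, of Crym against the mean of 4 striatal markers, with 1 point per array coloured by group. The 3 lowest arrays for Trhr, at 6.76, 6.87 and 6.92, are fasted AgRP-/- ones, and AgRP+/- fed replicate 4 stands apart at the upper right for Crym at 8.24.

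TRH is cleaved by pyroglutamyl peptidases, of which the product of Trhde acts at the cell surface and is selective for this peptide. Trhde read 6.84, 6.75, 6.73 and 6.81 in fasted AgRP-/- mice, against 7.15, 6.82, 6.98 and 7.21 in fed AgRP-/- mice. Fasted AgRP+/- mice had 6.77, 6.58, 6.99 and 7.02, against 6.80, 7.26, 6.86 and 6.90 in fed AgRP+/- mice. The groups overlapped in each genotype. Its averaged change of -0.19 (95% interval -0.37 to 0.0043, limma adjusted p = 0.258) did not pass the test.

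Pgpep1 encodes the cytosolic peptidase, which cleaves many peptides. Its brighter probe averaged 8.73 ± 0.029 in fasted and 8.72 ± 0.062 in fed AgRP-/- mice, and 8.55 ± 0.24 in fasted and 8.60 ± 0.14 in fed AgRP+/- mice (SD, n = 4 each). The averaged fasting change was -0.021 for this probe (95% interval -0.17 to 0.13, limma adjusted p = 0.9) and 0.022 for the dimmer one (-0.19 to 0.23, adjusted p = 0.929). The brighter probe's interval excludes a change of 0.2 or more in either direction. On the brighter probe AgRP+/- fasted replicate 4 was low at 8.21, whereas on the dimmer probe the lowest array was AgRP-/- fasted replicate 1 at 6.15, so the probes did not single out the same array.

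Thra encodes the main thyroid hormone receptor of the brain. Its probe lay near the median of all values, 5.12, and exceeded it on 8 of 16 arrays, so much of its range could not be told from background. It read 5.12, 5.21, 5.17 and 4.94 in fasted AgRP-/- mice, against 4.98, 5.29, 4.96 and 5.64 in fed AgRP-/- mice. The AgRP+/- values were 5.25, 5.37, 5.15 and 5.03 after fasting, against 4.64, 5.17, 4.69 and 4.66 in fed mice. The groups overlapped in each genotype.

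The fasting changes of Thra were -0.11 in AgRP-/- and 0.42 in AgRP+/- mice (limma adjusted p = 0.842 and 0.34). In fed mice it was 0.43 higher in AgRP-/- than in AgRP+/- mice, without a call (adjusted p = 0.999, unadjusted p = 0.0184). The interaction of -0.52 was the largest in size among the members' brightest probes (95% interval -1.02 to -0.028), with an adjusted p of 0.999 over all probes and an unadjusted p of 0.0393. The interaction called 0 of all kept probes (0%), with 371 probes (2.72%) at an unadjusted p under 0.05, so this value stands without a call.

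Hr encodes hairless, a nuclear corepressor that binds thyroid hormone receptors and whose own transcription in brain is directly induced by thyroid hormone. The brighter probe read 10.34, 10.58, 10.37 and 10.27 in fasted AgRP-/- mice, against 9.28, 9.45, 9.43 and 9.34 in fed AgRP-/- mice. Fasted AgRP+/- mice had 11.40, 10.75, 9.66 and 10.19, against 9.29, 9.16, 9.18 and 9.46 in fed AgRP+/- mice. All 8 fasted arrays lay above all 8 fed arrays, as for 0.609% of genes.

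The dimmer Hr probe read 6.10, 6.32, 6.25 and 6.34 in fasted AgRP-/- mice, against 5.09, 5.05, 5.18 and 4.66 in fed AgRP-/- mice. The AgRP+/- arrays had 7.34, 6.45, 5.79 and 5.79 after fasting, against 5.15, 4.83, 5.23 and 5.26 in fed mice. It also separated the 8 fasted from the 8 fed arrays. Some of its fed values lay below the median of all values, where background limits the size of a change.

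Averaged over genotypes Hr rose by 1.12 (SE 0.16, limma adjusted p = 0.00034), or 2.17-fold (95% interval 1.73 to 2.73), and by 1.24 (SE 0.17, adjusted p = 0.000315) on the dimmer probe. In AgRP-/- mice the change was 1.02 (SE 0.22), at an adjusted p of 0.0531 on the brighter probe, and the dimmer probe was called at 1.26 (adjusted p = 0.0244), where 0.271% of kept probes were called higher. In AgRP+/- mice it rose by 1.22 (SE 0.22, adjusted p = 0.0114) and by 1.23 on the dimmer probe (adjusted p = 0.0206), on both of which the gene was called. Fitted on AgRP-/- arrays alone the brighter probe was called (adjusted p = 3.37e-05), and fitted on AgRP+/- arrays alone neither probe was (adjusted p = 0.094 and 0.119), since all groups otherwise share 1 estimate of the spread. The interaction was -0.21 (95% interval -0.87 to 0.45) on that probe and 0.032 on the other, and neither was called (adjusted p = 0.999).

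Fasted AgRP+/- arrays spread over 1.75 on the brighter Hr probe, against 0.314 in fasted AgRP-/- mice and 0.30 in fed AgRP+/- mice. Replicate 1 was highest and replicate 3 lowest in that group on both probes, and replicate 3 was also the highest of its group for Trh and Trhr. Without replicate 2 of that group the AgRP+/- call was lost on both probes (1.14 and 1.19, limma adjusted p = 0.0555 and 0.0846). Without the 2 arrays with the highest pituitary transcripts both probes lost it as well (1.19 and 1.13, adjusted p = 0.0521 and 0.0889), and the dimmer probe lost its AgRP-/- call (1.24, adjusted p = 0.0786). On the dimmer probe it was also lost without AgRP+/- fed replicate 1 or 2 (adjusted p = 0.0569 and 0.0673). The dimmer probe's call in AgRP-/- mice did not hold when fed replicate 1, 2 or 4 or fasted replicate 2, 3 or 4 of that genotype was left out (adjusted p of 0.0535 to 0.0959). In AgRP-/- mice the brighter probe was called without AgRP+/- fasted replicate 1, 3 or 4, a change in the shared spread alone (adjusted p = 0.00202 to 0.0396). The averaged rise was called without each of the 16 arrays in turn (0.97 to 1.26).

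Midbrain dopamine neuron markers were higher on average with fasting, in the direction of Hr and opposite to that of Trhr. All 7 markers passed the filter, with 0 called for fasting within either genotype alone, and 5 of them were called higher averaged over genotypes. These were Slc6a3, the dopamine transporter, at 1.48 (limma adjusted p = 0.033), Th at 0.64 (0.0175), Chrna6 at 1.05 (0.00937), Chrnb3 at 0.72 (0.00614) and Lmx1a at 0.58 (0.0232). The mean level of all 7 markers ran from 7.19 to 7.56 in fasted AgRP-/- mice, against 5.83 to 6.80 in fed AgRP-/- mice. The AgRP+/- range was 6.28 to 7.54 after fasting, against 6.12 to 6.68 in fed mice. With 3 of them (Th, Slc6a3 and Chrna6) averaged into a covariate, the averaged change of Hr was 0.82 (SE 0.22, adjusted p = 0.11) and that of Trhr -0.36 (SE 0.12, adjusted p = 0.202), both without a call. Trh read -0.014 (SE 0.088, adjusted p = 0.968) in that fit. With this covariate 33 probes were called averaged over genotypes, against 572 without it. The covariate was itself higher with fasting, so the fit cannot tell its part in these changes from that of fasting.

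Among the 9 kept markers of hypothalamic neurons, 1 was called higher and 1 lower with fasting averaged over genotypes. Npy read 0.86 (limma adjusted p = 0.0016) and Oxt -0.39 (adjusted p = 0.0252), and Npy was also called higher in AgRP+/- mice alone. The lists that follow held single calls in the averaged contrast. Mobp of oligodendrocytes rose by 0.50 (limma adjusted p = 0.0411), with 1 of 5 kept markers called and list means of 11.26 to 11.66 in fasted and 11.26 to 11.41 in fed AgRP-/- mice, and of 11.34 to 11.61 in fasted and 10.88 to 11.52 in fed AgRP+/- mice. Cx3cr1 of microglia rose by 0.47 (adjusted p = 0.0489), also 1 of 5, and Clic6 of the choroid plexus fell by 0.29 (adjusted p = 0.0433), 1 of 4. Microglial list means were 6.61 to 6.72 in fasted and 6.41 to 6.77 in fed AgRP-/- mice, and 6.37 to 7.16 in fasted and 6.30 to 6.72 in fed AgRP+/- mice. Those of the choroid plexus were 6.12 to 6.42 in fasted and 6.29 to 6.37 in fed AgRP-/- mice, and 6.15 to 6.58 in fasted and 6.06 to 6.62 in fed AgRP+/- mice. Their part in the changes of Hr and Trhr was not tested.

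Single markers also stood over 1 above their median on some arrays. The thalamic Prkcd did so on AgRP-/- fasted replicates 1 and 4, AgRP+/- fasted replicate 4 and AgRP+/- fed replicate 1, and Ramp3 on AgRP-/- fasted replicate 4 and AgRP+/- fed replicate 1. The cortical Slc17a7 did so on AgRP-/- fasted replicate 1 and AgRP+/- fasted replicate 4. The microglial P2ry12 stood 2.10 above on AgRP+/- fasted replicate 3, the array with the lowest Hr and the highest Trhr of its group, and the midbrain En2 1.09 above on AgRP+/- fasted replicate 2. Slc6a3 did so on AgRP-/- fasted replicates 2 and 4 and AgRP+/- fasted replicate 1.

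Positions of the Actb probes on the transcript were not known here, so a difference between them cannot be read as a measure of RNA quality. The difference between the brightest and the dimmest of 5 kept Actb probes was lower on average in fasted mice. It averaged 4.59 ± 0.42 in fasted and 5.35 ± 0.73 in fed AgRP-/- mice, and 4.95 ± 0.56 in fasted and 5.83 ± 0.39 in fed AgRP+/- mice (SD, n = 4 each), and the groups overlapped in each genotype. With it as a covariate Hr changed by 1.37 (SE 0.20, limma adjusted p = 0.000979) and Trhr by -0.57 (SE 0.10, adjusted p = 0.00811), and both were called. Trh read -0.26 (SE 0.091, adjusted p = 0.166) in that fit. This covariate was itself lower on average with fasting, so the fit cannot tell its part from that of fasting.

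The genes most like Hr within groups were Tipin (r = 0.93), the glucose transporter gene Slc2a1 (0.911) and Pnpla2 (0.894), the gene of adipose triglyceride lipase. By rank these correlations were 0.835, 0.759 and 0.9. Hr spread most in fasted AgRP+/- mice (SD 0.75), against SDs of 0.077 to 0.14 in the other groups. The correlations with Hr therefore rest mainly on the fasted AgRP+/- arrays. Pnpla2 also rose with fasting, by 0.53 averaged over genotypes (limma adjusted p = 0.000493), while Slc2a1 read 0.24 (0.0759) and Tipin -0.11 (0.509). For Trh they were Prokr2 (r = 0.889), Crip3 (0.878) and Oxt (0.853), and Oxt, the oxytocin gene of paraventricular and supraoptic neurons, fell by 0.39 with fasting (adjusted p = 0.0252). The genes most like the others were Hpcal4 (0.859), Atp8a1 (0.834) and Ganab (0.83) for Trhde, Mvb12a (0.911), Mrpl17 (0.898) and P4ha2 (0.891) for Pgpep1, and Kif13a (0.878), Slc27a4 (0.831) and Sppl2a (0.809) for Thra. Pgpep1, Mvb12a, Mrpl17 and P4ha2 each read lowest on AgRP+/- fasted replicate 4, and by rank the correlations with Pgpep1 were 0.732, 0.726 and 0.762. The genes most like Crym were Hnrnph2 (0.796), Foxp1 (0.782) and Adcy9 (0.764), and those most like Nrgn were Engase (0.87), Slc25a29 (0.815) and Cdhr1 (0.813). Between members the strongest such correlations were those of Trh with Trhr (0.692) and of Trh with Hr (-0.681), of which the one with Hr again rests mainly on the fasted AgRP+/- arrays.

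Crym encodes mu-crystallin, a cytosolic protein that binds thyroid hormone. It averaged 7.09 ± 0.46 in fasted and 6.91 ± 0.17 in fed AgRP-/- mice, and 7.03 ± 0.22 in fasted and 7.20 ± 0.70 in fed AgRP+/- mice (SD, n = 4 each). The averaged fasting change was 0.0070 (95% interval -0.38 to 0.39, limma adjusted p = 0.988), an interval too wide to exclude a change of 0.3. Single arrays stood high. AgRP+/- fed replicate 4 read 8.24 beside 6.77 to 6.94 for the others of its group, and AgRP-/- fasted replicate 2 read 7.71 beside 6.70 to 7.15. The averaged change was 0.18 without AgRP+/- fed replicate 4 and -0.097 without AgRP-/- fasted replicate 2 (limma adjusted p = 0.482 and 0.81), the ends of the range over the 16 arrays left out in turn. It was -0.17 without the 2 arrays with the highest pituitary transcripts (adjusted p = 0.646).

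On AgRP+/- fed replicate 4 the striatal markers Ppp1r1b and Drd1 stood 1.14 and 1.22 above their medians. All 4 striatal markers on the array passed the filter, with a mean of 8.83 on that array. Their mean ran from 8.07 to 8.22 in fasted and from 7.88 to 8.34 in fed AgRP-/- mice, and from 8.24 to 8.36 in fasted and from 7.86 to 8.83 in fed AgRP+/- mice. With their mean as a covariate, chosen after seeing the data, the averaged fasting change of Crym was -0.095 (SE 0.13, limma adjusted p = 0.738), against 0.0070 (SE 0.18) without it, and neither was called.

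Nrgn encodes neurogranin, a calmodulin-binding protein of dendritic spines whose gene responds to thyroid hormone in forebrain. It read 8.32, 7.91, 8.07 and 8.05 in fasted AgRP-/- mice, against 8.20, 8.37, 8.16 and 8.24 in fed AgRP-/- mice. Values in AgRP+/- mice were 8.14, 8.14, 8.44 and 8.42 after fasting, against 7.85, 8.15, 8.29 and 8.31 in fed mice. The groups overlapped in each genotype. The averaged change was -0.011 (95% interval -0.18 to 0.16, limma adjusted p = 0.957). Within genotypes it was -0.15 in AgRP-/- and 0.13 in AgRP+/- mice, with an interaction of -0.29 (95% interval -0.63 to 0.050, adjusted p = 0.999).

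**Figure D4:**
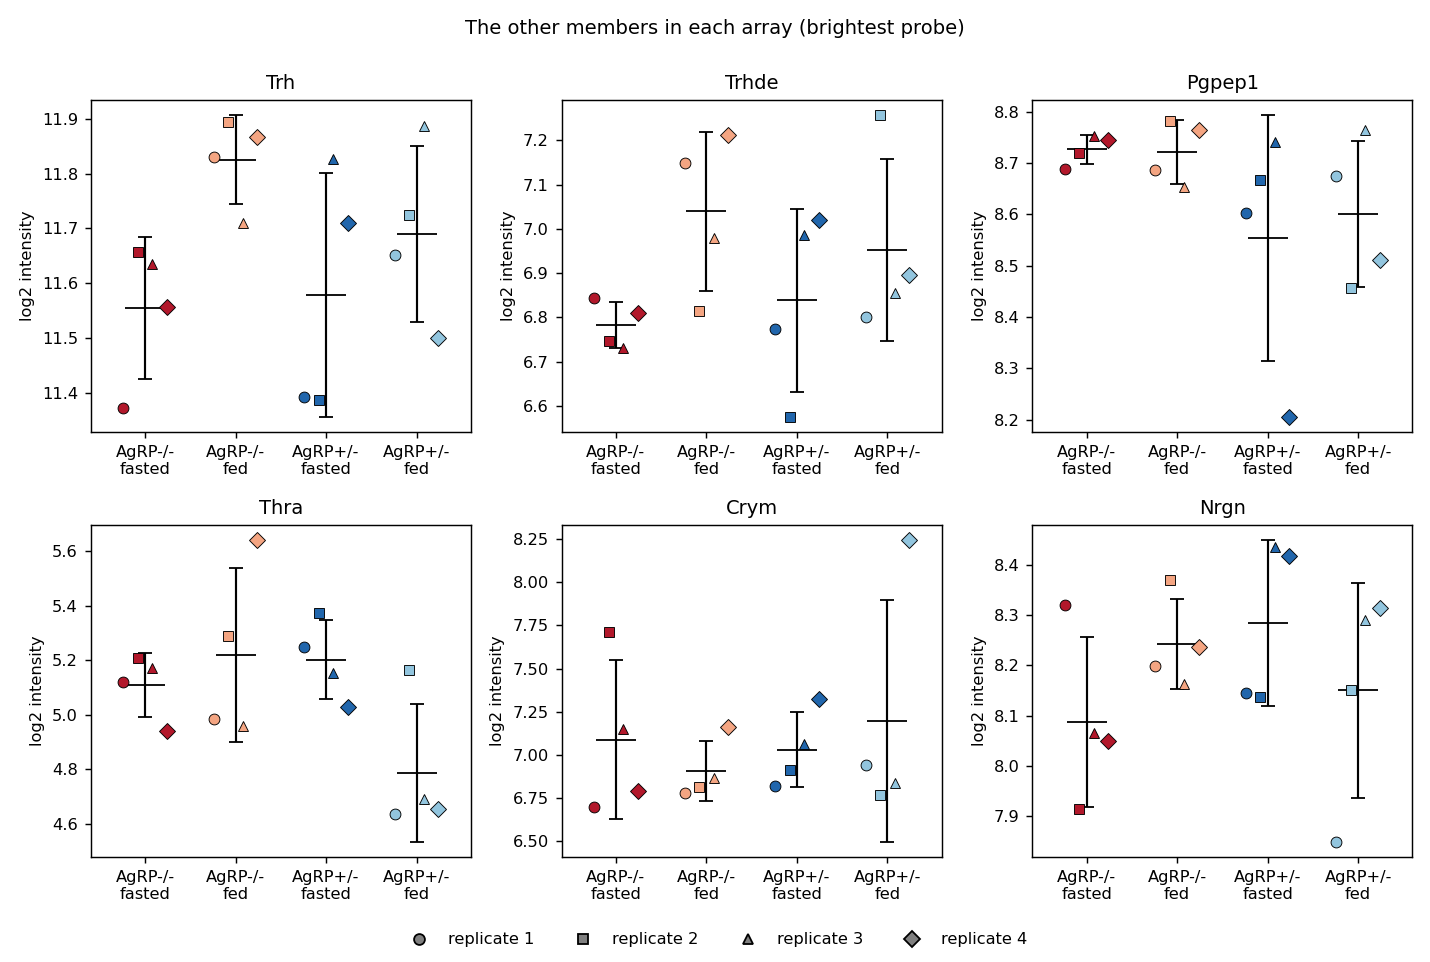
Log2 intensity of Trh, Trhde, Pgpep1 (brighter probe), Thra, Crym and Nrgn on each array, by group, with the mean and SD (n = 4). Fasted and fed groups overlap within each genotype in every panel except Trh in AgRP-/- mice, and AgRP+/- fed replicate 4 stands apart for Crym.

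Other genes of the pathway were followed in 6 lists. Averaged over genotypes 4 of their 39 kept genes were called (10.3%), beside 4.31% of all genes. Because the lists were chosen with earlier results of these data known, these shares are descriptions and not a test of the pathway. In the list of hormone responsive brain genes, 1 of 13 kept genes was called higher and 2 lower averaged over genotypes, with a list median of 0.025 beside -0.0032 for all genes. Itga7, an integrin chain, rose by 0.57 (SE 0.11, limma adjusted p = 0.00499). It ran from 5.80 to 6.13 in fasted and from 5.38 to 5.92 in fed AgRP-/- mice, and from 6.02 to 6.14 in fasted and from 4.90 to 5.59 in fed AgRP+/- mice. It was also called in AgRP+/- mice alone (0.78, adjusted p = 0.0185). That call was lost when replicate 1 of the fed or replicate 2 or 4 of the fasted AgRP+/- group was left out (adjusted p of 0.0535 to 0.066). It was lost as well without a filter (adjusted p = 0.0575), with the compared groups alone (0.0821) and with the Actb covariate (0.104). The lowest fed AgRP+/- value of Itga7 lay below the median of all values, 5.12, where background limits the size of a change.

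Dbp, a transcription factor under clock control, fell by 0.31 (SE 0.060, limma adjusted p = 0.00607), with 11.98 to 12.29 in fasted against 12.48 to 12.54 in fed AgRP-/- mice and 11.89 to 12.37 in fasted against 12.43 to 12.58 in fed AgRP+/- mice. Its fasted and fed arrays did not overlap in either genotype, as for 4.43% of genes in AgRP-/- and 2.31% in AgRP+/- mice in this direction. Gbp3, an interferon-inducible GTPase, fell by 0.49 (adjusted p = 0.0165) on its brighter probe and by 0.73 (adjusted p = 0.00139) on the other. Klf9, a transcription factor gene induced by thyroid hormone, read 0.23 (adjusted p = 0.27) and Aldh1a1, an enzyme of retinoic acid synthesis, 0.39 (adjusted p = 0.227). With the dopamine covariate Dbp read -0.24 (adjusted p = 0.269) and Gbp3 -0.25 (adjusted p = 0.506), both without a call. With the Actb probe difference as a covariate, Dbp, Gbp3 and Itga7 were not called (adjusted p of 0.0729 to 0.0875).

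Of 6 kept thyroid hormone transporter genes, 0 were called higher and 1 lower (list median -0.020). Slco1c1, which carries thyroxine across the blood-brain barrier, fell by 0.29 (SE 0.081, limma adjusted p = 0.0491). That call was lost without any of 11 of the 16 arrays (adjusted p up to 0.102), and with the Actb probe difference as a covariate the change was -0.14 (adjusted p = 0.544). Slc7a5, an amino acid transporter that also accepts thyroid hormones, read 0.24 (adjusted p = 0.0626). Slc16a10 read -0.30 (adjusted p = 0.176).

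The deiodinase genes Dio1, Dio2 and Dio3, whose enzymes activate or inactivate the hormone, did not pass the filter, so their changes were not read. Of the 3 kept genes in that list 0 were called (median -0.077), and Ttr, which encodes transthyretin, read -0.44 with a wide error (SE 0.43, limma adjusted p = 0.61). Ttr is also a choroid plexus marker and stood 1.73 above its median on AgRP+/- fasted replicate 3, and 2.09 and 1.62 above it on AgRP+/- fed replicates 1 and 4. Secisbp2, which helps to insert selenocysteine into the deiodinases, read -0.077 (adjusted p = 0.71). Among 8 kept receptor partners and coregulators 0 were called (list median 0.0074), and Thrb, the other thyroid hormone receptor gene, did not pass the filter. By each gene's brightest probe the smallest p-values in that list were those of Rxra at 0.24 (adjusted p = 0.264) and Med1 at -0.15 (0.275). Rxrb read 0.32 (adjusted p = 0.064) on its dimmer and 0.035 (0.738) on its brighter probe. Enzymes and helpers of TRH precursor processing had 0 of 4 called (median 0.0064), with Pcsk1n at 0.12 (0.121) and Scg5 at -0.091 (0.471). Regulators of TRH neurons had 0 of 5 called (median -0.084), with the receptor genes Npy5r at -0.22 (0.159) and Npy1r at -0.11 (0.619). Between genotypes limma called 0 of the 39 kept genes of these lists, with 4 at an unadjusted p under 0.05 in fed mice, 4 in fasted mice and 6 averaged over feeding. These are 10.3%, 10.3% and 15.4% of the listed genes, beside 4.29%, 7.14% and 8.93% of all genes. Given how the lists were chosen, these shares too are descriptions only. The interaction also called 0, with 0 at an unadjusted p under 0.05, beside 2.64% of all genes. In fed mice Pam, which amidates TRH and other peptides, read 6.07 in AgRP-/- and 5.39 in AgRP+/- mice on average, a difference of 0.68 that was not called (adjusted p = 0.999, unadjusted p = 0.00155).

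**Figure D5:**
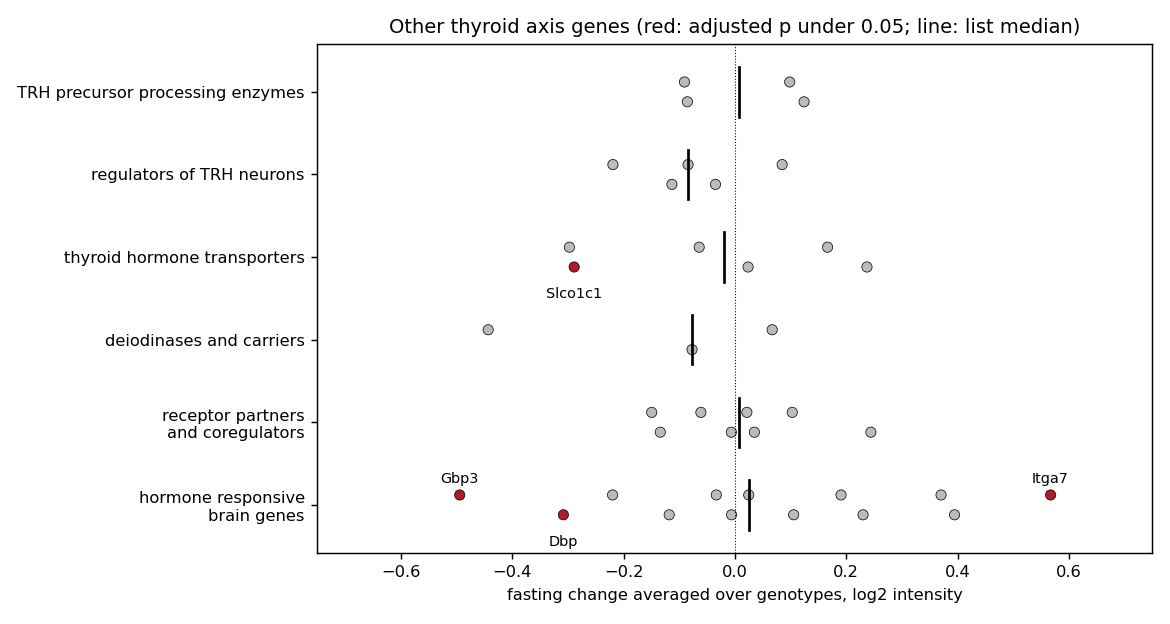
Fasting change averaged over genotypes (log2 intensity, fasted minus fed) of each kept gene in the 6 pathway lists, with red points for an adjusted p under 0.05 and a line at each list's median. The 4 called genes are Itga7 at 0.57, Slco1c1 at -0.29, Dbp at -0.31 and Gbp3 at -0.49.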

How the data were processed

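The authors deposited log2 intensities for each of 25697 probes on 16 arrays, and limma is named, without version or role, per the submitters' processing notes. For background correction and normalization no step is given in the sources read here, so both remain unknown. RNA was labelled as biotinylated cRNA, per the labels' protocols. Detection p-values, bead counts, slides and scan batches were not used here. Groups and replicate numbers come from sample titles.

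Probes were named from the platform annotation, which can be old. A probe was kept when it exceeded the median of all values (5.12) on at least 4 of 16 arrays. A gene was represented by its brightest kept probe. Values were fitted with limma 3.58.1 in R 4.3.3 (1 coefficient per group, intensity trend, 12 residual degrees of freedom, 7 contrasts). P-values were adjusted by Benjamini-Hochberg over 13662 kept probes, and fits were tested on simulated data. The number of arrays limits precision.

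The members and gene lists were chosen with earlier results of these data known. The text names all members; called genes of each pathway list, or else the 2 with the smallest p; the 3 genes most like each member; and markers over 1 above their median on an array. Named after their values were seen were Klf9, Aldh1a1, Slc7a5, Slc16a10, Pam, Rxrb, Sim1, Otp, the cell type markers called with fasting averaged over genotypes and the ependymal markers.

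Alternatives were no filter, a stricter filter (7.73, the upper quartile), quantile normalization, median centring, no trend, array weights, 1 probe per gene, only the groups compared, a replicate block, covariates (dopamine, ependymal or striatal markers, Actb) and left-out arrays; the ependymal and striatal covariates and the removal of both arrays with a pituitary marker over 2 above its median were added after seeing the data.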

Additional observations from a re-analysis of the deposited data

Results flagged for a closer look

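Among 40 sets of 4 arrays (10 probes in 4 groups), 2 held an array that stood farther from the rest of its group than Dixon's test allows at the 95% level. Chance gives about 1 in 20. Crym read 8.24 on AgRP+/- fed replicate 4, against 6.77 to 6.94 on the other arrays of that group, a gap of 0.882 of the range. Thra read 5.17 on AgRP+/- fed replicate 2, against 4.64 to 4.69 on the others, a gap of 0.898 of the range, all close to the background. No member passed the interaction test.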

How the results depend on the processing

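Averaged over genotypes 2 members were called with fasting, Hr and Trhr, and this held without each of the 16 arrays in turn (2 to 2). The stricter filter left 1, since Trhr did not pass it, and the dopamine covariate left 0. The AgRP+/- count of 1 was 0 with the compared groups alone, the dopamine covariate or without the arrays with any pituitary marker over 2 above its median, and 0 to 1 without single arrays (0 without AgRP+/- fasted replicate 2). The AgRP-/- count of 1 was 0 without a filter, with the stricter filter, the dopamine or ependymal covariate or without those pituitary arrays. It was 2, with Hr added, under array weights, the compared groups alone and the Actb covariate, and ran from 0 to 2 without single arrays. The replicate number as a block gave 2 in AgRP-/- mice (Hr 1.02, limma adjusted p = 0.0392). Same-numbered arrays deviated together little, with r of -0.19 to 0.30 over 24 pairs (median 0.022, 7 over 0.1). Pairs with other numbers had r of -0.33 to 0.40 over 72 pairs (median -0.019, 17 over 0.1). Of 16 arrays, 5 correlated best with their own number. The titles do not say what the numbers stand for, and these correlations cannot settle it. Apart from the stricter filter's exclusion, the smaller set of arrays and the shared spread, the cause was not tested. Genotype and interaction counts were 0 throughout. Of 2446 values for single genes, 2265 kept direction and call, 66 lost and 9 gained a call, 106 without a call changed sign, and 0 called ones reversed. Most of the 2446 belonged to results without a call in the main fit, which had no call to lose. The 66 losses therefore fell on the smaller share that was called. Probes called averaged over genotypes numbered 572, against 33 with the dopamine, 176 with the Actb and 303 with the ependymal covariate, 351 without the pituitary arrays and 301 to 380 without single arrays (fasted replicate 1 or fed replicate 3 of AgRP-/-, fasted replicate 2 or fed replicate 4 of AgRP+/-). In AgRP-/- mice 53 probes were called, against 1 (dopamine covariate) to 143 (array weights), 29 with no trend, 90 with the replicate block and 27 to 35 without a fasted replicate 1, 2 or 3 or fed replicate 4 of that genotype. In AgRP+/- mice 103 were called, against 19 with the dopamine covariate, 30 with the compared groups alone and 41 to 68 without fasted replicate 1, 2 or 4 or fed replicate 1, 2 or 4 of that genotype. Thra and the dimmer Hr probe lay near background, and without slide or batch records no such block was fitted.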
